A study of Mus musculus with 12 samples.

Results

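The genes described here are 10 antiviral genes that type I interferon switches on: Ifit1, Ifit2, Ifit3, I830012O16Rik (now named Ifit3b), Isg15, Isg20, Rsad2, Cmpk2, Mx1 and Usp18. They were chosen by name and function, with earlier results of these data known, and all 10 were found among the 43278 gene symbols of the deposited table. The libraries came from thioglycolate-elicited peritoneal macrophages (PMφs), which are drawn into the mouse peritoneal cavity by an irritant, washed out after 4 d and left to adhere for 18 h. All cells were from C57BL/6J wild-type mice 8 to 12 wk old, and each culture held cells pooled from several mice, which the methods give as litters of both sexes. The 12 libraries fall into 4 groups of 3: control PMφs, PMφs loaded with 100 µg/ml human oxidized low-density lipoprotein for 24 h (oxLDL), PMφs given 10 ng/ml LPS (LPS), and PMφs loaded with oxLDL and then given LPS (oxLDL+LPS). The length of the LPS treatment of these libraries is not given in the sources used here. Elicited PMφs are a model of inflammatory macrophages, and oxLDL loading models the lipid-laden foam cell of the arterial wall.

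LPS from bacterial membranes binds TLR4, and the TLR4 route through the adaptors TRAM and TRIF and the kinase TBK1 activates IRF3, which induces the interferon gene Ifnb1. Secreted interferon binds the IFNAR1 and IFNAR2 receptor, the kinases JAK1 and TYK2 pass the signal on, and transcription factors that include IRF9 bind a short DNA element, the interferon-stimulated response element (ISRE). The IFIT proteins bind foreign RNA and block its translation. ISG15 is a ubiquitin-like tag put on other proteins, and USP18 removes it and restrains the interferon receptor. The remaining genes encode enzymes and a GTPase that restrict virus growth. The question put to these data is how far LPS raised the antiviral genes, and whether oxLDL loading altered their level with or without LPS.

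The promoters of the members are shown where their first 250 bases hold the core of the ISRE, searched as GAAA, any 2 bases and a second GAAA on either strand, with overlaps allowed. Of the 10 members, 8 matched an entry of the RefSeq promoter table (GRCm38.p6), and 5 of them held the core: Ifit1, Ifit3, I830012O16Rik, Isg15 and Rsad2. The core occurred at least once in 2.98% of all 32851 windows of that length and at least 2 times in 0.18%, while Ifit1, Ifit3 and I830012O16Rik held 2 copies and Isg15 held 3. The windows of Ifit2 (2 start sites), Isg20 (3 start sites) and Cmpk2 held none in these letters. The sequences below are on the gene's own strand, end at the base before the start site, and have the core in capitals. Capitals that begin with TTTC are the core read on the opposite strand.
Ifit1: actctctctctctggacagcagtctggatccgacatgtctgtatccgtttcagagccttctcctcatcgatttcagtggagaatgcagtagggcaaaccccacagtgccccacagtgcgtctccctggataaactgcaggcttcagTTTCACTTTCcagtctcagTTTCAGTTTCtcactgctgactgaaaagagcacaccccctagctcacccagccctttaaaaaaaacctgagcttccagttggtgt
Ifit3: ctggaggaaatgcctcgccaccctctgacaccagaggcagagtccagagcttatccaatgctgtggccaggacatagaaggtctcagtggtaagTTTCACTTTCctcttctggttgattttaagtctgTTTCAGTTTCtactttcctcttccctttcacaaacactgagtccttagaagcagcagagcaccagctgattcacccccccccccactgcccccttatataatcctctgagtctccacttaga
I830012O16Rik: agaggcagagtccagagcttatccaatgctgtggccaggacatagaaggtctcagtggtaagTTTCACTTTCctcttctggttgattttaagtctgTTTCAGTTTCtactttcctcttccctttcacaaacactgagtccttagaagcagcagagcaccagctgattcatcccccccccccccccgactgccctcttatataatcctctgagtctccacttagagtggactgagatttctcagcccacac
Isg15: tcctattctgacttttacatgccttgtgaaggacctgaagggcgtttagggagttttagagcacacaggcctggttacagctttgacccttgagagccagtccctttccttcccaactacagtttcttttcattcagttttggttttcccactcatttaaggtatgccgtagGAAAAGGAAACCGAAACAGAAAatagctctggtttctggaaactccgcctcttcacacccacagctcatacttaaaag
Rsad2: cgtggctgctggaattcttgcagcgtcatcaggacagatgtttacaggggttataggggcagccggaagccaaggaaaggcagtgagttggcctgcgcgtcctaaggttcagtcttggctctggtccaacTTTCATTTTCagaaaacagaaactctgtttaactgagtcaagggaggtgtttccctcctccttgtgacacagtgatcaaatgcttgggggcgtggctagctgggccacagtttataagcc
These windows lie at chr19:34640639-34640888 (Ifit1, plus strand), chr19:34583279-34583528 (Ifit3, plus strand), chr19:34607707-34607956 (I830012O16Rik, plus strand), chr4:156200819-156201068 (Isg15, minus strand) and chr12:26456453-26456702 (Rsad2, minus strand). The 3 copies in Isg15 overlap and begin 78, 72 and 66 bases before the start site. The copies begin 104 and 85 bases before the start of Ifit1, 156 and 122 before Ifit3, 188 and 154 before I830012O16Rik, and 120 before Rsad2. The windows of Ifit3 and I830012O16Rik share an identical run of 169 bases that covers both copies.

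In the GENCODE annotation (GRCm38), the 4 IFIT members lie together on chromosome 19, all on the plus strand: Ifit2 from 34550694 to 34576419, Ifit3 from 34583531 to 34588731, I830012O16Rik from 34607970 to 34613401 and Ifit1 from 34640871 to 34650009. Rsad2 (chromosome 12, 26442746 to 26456452, minus strand) and Cmpk2 (26469204 to 26479837, plus strand) are neighbours that point away from each other. Isg15 is on chromosome 4 (156199424 to 156200818, minus strand), Isg20 on chromosome 7 (78913424 to 78920396, plus strand), Mx1 on chromosome 16 (97447035 to 97462907, minus strand) and Usp18 on chromosome 6 (121245906 to 121270917, plus strand). GENCODE lists all 10 as protein coding, whereas RefSeq lists Mx1 of this reference strain as a transcribed pseudogene. Ifit3 and I830012O16Rik are close copies, with 296 of the 1596 stretches of 150 bases in Ifit3 transcripts (18.5%) also found among the 1851 of I830012O16Rik, so the split of reads between them is uncertain. Between Ifit1 and its neighbour 2010002M12Rik the shared part was 1.24% of Ifit1 stretches. Usp18 shares 124 exon bases (4.44%) with a gene on the opposite strand, and whether the counting used strand is not stated.

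The values are whole numbers that the authors had already scaled between libraries, called normalized counts here. They summed to 17152972 to 17709731 per control library, 17440329 to 17444102 per oxLDL library, 22590678 to 26384551 per LPS library and 22071853 to 23346854 per oxLDL+LPS library. The reads behind them are unknown, so no counting error is given, and the spread between libraries stands for all error. The labels were checked on genes outside the list: Tnf, a cytokine gene that LPS induces, was 50 to 89 in the 6 libraries without LPS and 20752 to 85240 in the 6 with it. Cd36, Plin2 and Hmox1, which oxLDL induces, were higher in every oxLDL-loaded library than in the same-numbered library without oxLDL. All 8 macrophage markers were detected (summed 231967 to 347950). T and NK cell markers summed to at most 7 and B cell markers to at most 86. Neutrophil markers, of which 1 of 5 was at 0 throughout, summed to 31 to 50 without LPS and 79 to 257 with it. Most of that sum was S100a8, at 31 to 49 without LPS and 74 to 248 with it. Camp was 0 without LPS and 1 to 10 with it, while Ngp and Elane were at most 4 without LPS and 0 with it. The 5 plasmacytoid dendritic cell markers summed to 22 to 57 without LPS and to 62 to 165 with it, those of mast cells and eosinophils (1 of 5 at 0 throughout) to 19 to 84, and those of mesothelial cells and fibroblasts to 2449 to 15544. The part of these other cells in the results was not tested. The sex-linked genes did not show 1 mixed pool per number. In number 1 the X-linked Xist was 1 and 2 without LPS and 6331 and 3812 with it, while the Y-linked Ddx3y was 1156 and 1132 without LPS and 459 and 439 with it, so number 1 was not the same mix of animals in all groups. In number 2, Ddx3y was at most 2 in the 4 libraries and Xist 5933 to 7751, as in cells of females. The part of these mixes in the results was not tested.

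The 10 members stood far higher in LPS-treated than in control PMφs. The test was limma's, on log2(normalized count + 1) over genes with values of 10 or more in 3 or more of the 6 libraries, with calls at a Benjamini-Hochberg adjusted p under 0.1, and each log2 fold change is given ± its standard error (SE). I830012O16Rik passed the filter only through its LPS libraries, so it had to differ, and its values are given as a description. The other 9 members were all called higher with LPS, where 31.4% of the 13023 genes tested were called higher and 30.3% lower. Their fold changes ran from 64.1-fold for Isg20 to 1215-fold for Mx1, with adjusted p between 7.4e-08 and 1.33e-07, and the smallest of them ranked 111 and the largest 13 among all genes by log2 fold change. In bulk RNA, more RNA per cell and more responding cells cannot be told apart. With libraries brought to equal totals instead, all genes shifted by -0.48 on the log2 scale, and calls went from 4093 higher and 3946 lower to 2210 higher and 7200 lower. The 9 members were called higher under that scaling too, with log2 fold changes of 5.52 to 9.77.

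**Figure D1:**
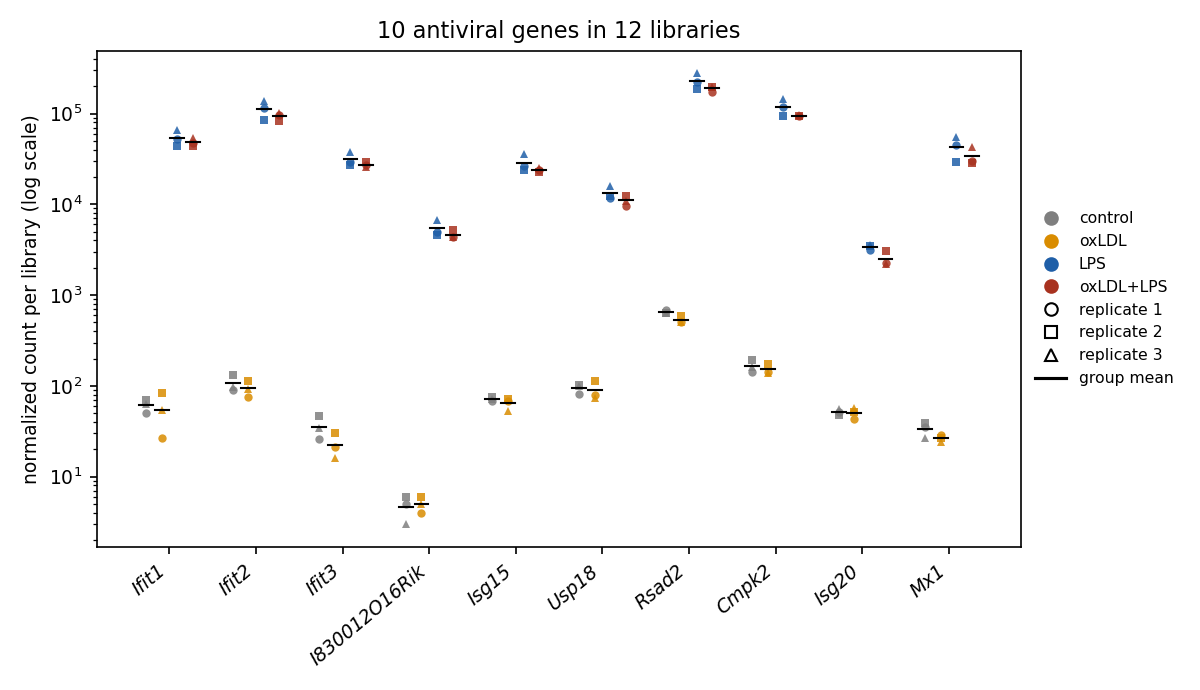
Normalized counts of the 10 genes (y axis, log scale) in each of the 12 libraries, with colours for the 4 groups, symbols for the replicate number and a black bar for the group mean. For each gene the 6 libraries with LPS lie far above the 6 without, from 38.9 times (Isg20) to 734.4 times (Mx1) as high when the lowest value with LPS is set against the highest without.

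RNA of the 4 IFIT members was scarce in control PMφs. With LPS their means ranked from 16 (Ifit2) to 764 (I830012O16Rik) among all genes. Ifit1, whose protein holds on to RNA with a foreign cap, was 50, 70 and 63 in control replicates 1, 2 and 3 and 52365, 44422 and 66425 in the LPS replicates. The log2 fold change was 9.77 ± 0.18 (SE; limma, adjusted p = 7.4e-08). Ifit2, which binds RNA rich in A and U and helps IFIT complexes to form, had the highest counts of the family, with 91, 132 and 97 in control and 114233, 85723 and 135899 in LPS libraries (log2 fold change 10.02 ± 0.20). Its level put it at rank 16 of all genes in LPS-treated PMφs. Ifit3 was 26, 47 and 34 in control and 29409, 27062 and 37470 in LPS libraries (9.76 ± 0.22). Its copy I830012O16Rik was close to the limit of detection in control PMφs, at 5, 6 and 3, and reached 4978, 4560 and 6735 with LPS. Its log2 fold change of 9.92 rests on those few counts: with 10 instead of 1 added before the logarithm it was 8.52, and that of Ifit3 was 9.43. The level of the copy was below that of Ifit3 in every library. In each of the 4 IFIT members replicate 3 was the highest LPS library and replicate 2 the lowest, and no control library came near an LPS library.

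The 2 remaining IFIT genes of the cluster, fixed as a separate list, were also higher with LPS but stayed far below. Both passed the filter only through their LPS libraries, so no test is given. Gm14446 (now Ifit1bl1) was 1, 0 and 0 in control and 1713, 879 and 1324 in LPS libraries. 2010002M12Rik (now Ifit1bl2) was 2, 2 and 3 in control and 46, 58 and 66 with LPS, a log2 fold change of 4.11. The first of its 2 start sites lies head to head with that of Ifit1. The window of 250 bases before that site (chr19:34640744-34640993, minus strand) takes in the same 2 copies of the ISRE core shown above for Ifit1. The window of the second start site held none. Per kb of exon, the mean level with LPS was 16.8 for 2010002M12Rik and 20483 for Ifit1.

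ISG15 is attached to proteins by a chain of enzymes and removed by USP18, which also restrains the interferon receptor. Isg15 was 69, 76 and 72 in control and 26673, 23762 and 36094 in LPS libraries, a log2 fold change of 8.60 ± 0.15 (limma, adjusted p = 7.4e-08). Usp18 was 82, 103 and 100 in control and 11624, 12315 and 16066 in LPS libraries, a log2 fold change of 7.11 ± 0.15 (limma, adjusted p = 8.79e-08). The tag and its protease therefore both rose, the tag by the larger factor. The 4 genes of the attachment chain were all called higher with LPS as well: the activating enzyme Uba7 (log2 fold change 3.86), the conjugating enzyme Ube2l6 (3.70) and the ligases Herc6 (4.78) and Trim25 (1.96). Their median was 3.78, against 9.47 for the 9 members tested and -0.00 for all genes.

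Rsad2 and Cmpk2 encode enzymes of nucleotide metabolism: RSAD2 (viperin) turns CTP into a chain terminator of viral RNA synthesis, and CMPK2 is a mitochondrial kinase that supplies CTP. Rsad2 was the most abundant member in every library. It was 683, 639 and 628 in control and 222362, 184911 and 277258 in LPS libraries, a log2 fold change of 8.43 ± 0.15. With LPS it held rank 7 of all genes by mean and between 0.764% and 1.05% of the whole library total. Cmpk2 was 141, 192 and 161 in control and 118760, 93074 and 143846 in LPS libraries, a log2 fold change of 9.47 ± 0.18, which made it the gene at rank 15. Both neighbours had replicate 3 as the highest and replicate 2 as the lowest LPS library, as the IFIT genes did.

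Isg20 and Mx1 marked the ends of the range of fold changes. Isg20, an exonuclease that degrades RNA, was 51, 48 and 56 in control and 3122, 3447 and 3555 in LPS libraries, a log2 fold change of 6.003 ± 0.11. Mx1 was 35, 39 and 27 in control and 44596, 29160 and 55637 in LPS libraries, a log2 fold change of 10.25 ± 0.24. Working MX1 is a dynamin-like GTPase that traps influenza virus proteins. RefSeq lists Mx1 of this reference strain as a transcribed pseudogene, so the counts do not speak of working protein. Isg20 was the most even across the LPS libraries, with a coefficient of variation of 6.68%, and Mx1 the least even, with 30.8%. The related Mx2, fixed in another list, was 9, 8 and 14 in control and 5906, 4712 and 8722 with LPS.

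Together the 10 genes made up 0.0070% to 0.0078% of a control library and 2.10% to 2.95% of an LPS library. Per kb of exon, which allows levels of different genes to be compared, the order of the means in LPS-treated PMφs was Rsad2 (52636 normalized counts per kb), Isg15 (38152), Ifit2 (28508), Cmpk2 (28479), Ifit1 (20483), Ifit3 (17945), Mx1 (11395), Usp18 (4780), I830012O16Rik (2712) and Isg20 (1814). The ranges of the 3 libraries overlapped for each pair of neighbours from Rsad2 down to Ifit3, and did not overlap from Ifit3 to Mx1 and below. In control PMφs the order was Rsad2 (149.9), Isg15 (95.7), Cmpk2 (39.5), Usp18 (34.0), Isg20 (27.8), Ifit2 (27.2), Ifit1 (23.0), Ifit3 (20.4), Mx1 (8.89) and I830012O16Rik (2.33). Here the neighbours from Cmpk2 to Ifit3 overlapped, while Rsad2, Isg15, Mx1 and I830012O16Rik stood apart from the next gene. Isg20 thus held place 5 of the 10 without LPS and place 10 with it.

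LPS was followed by high levels of the 10 genes in oxLDL-loaded PMφs too. In oxLDL+LPS against oxLDL libraries I830012O16Rik again passed the filter only through the libraries with LPS, and the other 9 members were all called higher by limma, where 28.2% of the 12900 genes tested were called higher. Log2 fold changes ran from 5.61 ± 0.17 for Isg20 (adjusted p = 5.83e-07) to 10.24 ± 0.20 for Ifit3 (adjusted p = 1.4e-07), with 10.23 for Mx1, 8.53 for Isg15 and 8.46 for Rsad2. Under equal totals all genes shifted by -0.38, calls went from 3633 higher and 3397 lower to 2055 higher and 6617 lower, and the 9 members were again called higher. The 10 genes held 0.0057% to 0.0073% of an oxLDL library and 2.23% to 2.39% of an oxLDL+LPS library.

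**Figure D2:**
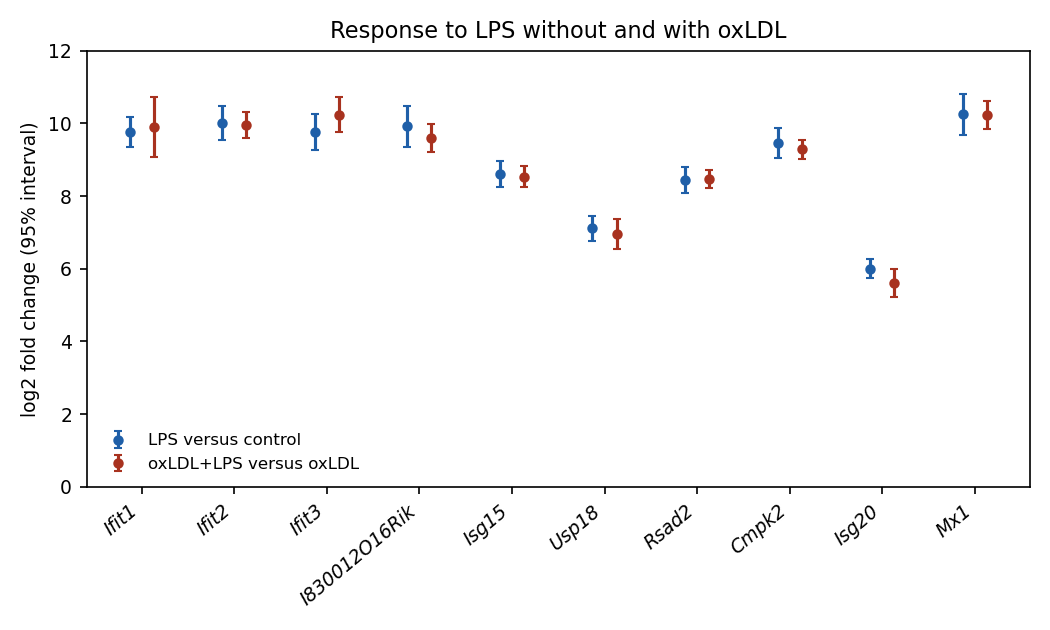
Log2 fold change of each gene with LPS (y axis, starting at 0), without oxLDL in blue (LPS versus control) and with oxLDL in red (oxLDL+LPS versus oxLDL), with bars for the 95% interval from limma. The estimates of the 2 comparisons differ by at most 0.48 (Ifit3), and Isg20 and Usp18 sit lowest in both.

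Whether the response to LPS differed with oxLDL was tested by the interaction term over all 12 libraries, which is also the test of whether the oxLDL effect differed with LPS. Limma called 0 of the 10 members and 0% of 13482 genes, with 0 members and 418 genes at an unadjusted p under 0.05. The interaction of Ifit3 was 0.48 on the log2 scale (95% interval -0.24 to 1.19) and that of Isg20 was -0.40 (-0.84 to 0.04), while Mx1 stood at -0.01 (-0.72 to 0.69) and Rsad2 at 0.02 (-0.39 to 0.44). These intervals are wide enough to hold changes of the LPS response in either direction, so the test does not show that the responses are alike. With the replicate number as a block within each LPS state, 147 genes were called, 0.682% of the genes tested being called lower, and 0 members, with Isg20 and Ifit3 at unadjusted p of 0.0205 and 0.0308.

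In LPS-treated PMφs, the 10 antiviral genes had lower means with oxLDL than without, by a margin that was within the spread between libraries for most of them. Limma called 0 of the 10 members and 0% of the 12786 genes tested, with 1 member (Isg20) and 890 genes at an unadjusted p under 0.05. The means of the oxLDL+LPS group were 74.4% (Isg20) to 89.3% (Ifit1) of those of the LPS group, with a median of 82.7% over the 10 genes. Under equal totals the range was 79.3% to 95.5%. The median log2 fold change was -0.25 for the members and -0.01 for all genes tested.

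The IFIT genes lay in overlapping ranges in both LPS groups. With oxLDL and LPS, Ifit1 was 47851, 44156 and 53707 in replicates 1, 2 and 3, and Ifit2 was 96130, 82904 and 101143. Ifit3 was 27208, 29062 and 25974, and I830012O16Rik was 4385, 5146 and 4360. For Ifit1 and Ifit2 every oxLDL+LPS library was below its same-numbered LPS library, whereas for Ifit3 and its copy replicate 2 went the other way. The log2 fold changes were -0.15 for Ifit1 (95% interval -0.62 to 0.33), -0.24 for Ifit2 (-0.81 to 0.33), -0.18 for Ifit3 (-0.57 to 0.21) and -0.21 for I830012O16Rik (-0.60 to 0.17). Without LPS replicate 3, the value of Ifit1 was 0.0055.

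Isg15 was 23694, 22744 and 25138 in oxLDL+LPS libraries, a log2 fold change of -0.25 (95% interval -0.68 to 0.18). Its protease Usp18 was 9633, 12477 and 10953, a log2 fold change of -0.27 (-0.66 to 0.12). In both genes the values crossed those of the LPS group, and replicate 2 hardly differed between the groups. The 4 attachment enzymes had 0 calls and a median of -0.18.

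Rsad2 was 174242, 194857 and 196691 with oxLDL and LPS, a log2 fold change of -0.26 (95% interval -0.90 to 0.39). Cmpk2 was 94456, 95055 and 95184, a log2 fold change of -0.30 (-0.84 to 0.24). The Cmpk2 values of this group were the most even of any member in any group, with a coefficient of variation of 0.409%, where its LPS libraries had 21.4%. Mx1 was 29951, 28641 and 42833, a log2 fold change of -0.33 (-0.98 to 0.33). As with the other genes, these ranges overlapped those of the LPS group.

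Isg20 was the exception. Its oxLDL+LPS libraries, at 2264, 3057 and 2215, all lay below its LPS libraries, a pattern that 6.39% of the genes tested showed. The log2 fold change was -0.44 ± 0.14 (95% interval -0.78 to -0.10; limma, adjusted p = 0.698). Blocking on the replicate number lowered the SE to 0.097 and the adjusted p to 0.0312, so that Isg20 was called lower, as the only member. That fit called 1682 genes, 8.74% of those tested lower and 4.42% higher. Without replicate number 2 the blocked fit called 5 members lower, namely I830012O16Rik, Isg15, Isg20, Mx1 and Usp18. That fit called 2945 of the 12334 genes tested, 1846 of them lower and 1099 higher. The blocked adjusted p of Isg20 was instead 0.244 without number 1 (71 genes called) and 0.375 without number 3.

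The same-numbered values were uneven across the 3 replicate numbers, a spread that was not itself tested. As a percentage of the same-numbered LPS library, the oxLDL+LPS values had a median over the 10 genes of 83.5% in number 1, 100.3% in number 2 and 69.5% in number 3. All 10 members were lower in numbers 1 and 3, and 5 of 10 in number 2, where 49.5%, 54.5% and 48.4% of all genes were lower in numbers 1, 3 and 2. The 5 members lower in all 3 numbers were Ifit1, Ifit2, Isg15, Isg20 and Mx1, and 24.4% of the genes tested had that pattern. LPS replicate 3 held the highest value of the LPS group for all 10 members, and LPS replicate 2 the lowest for 8 of them.

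**Figure D3:**
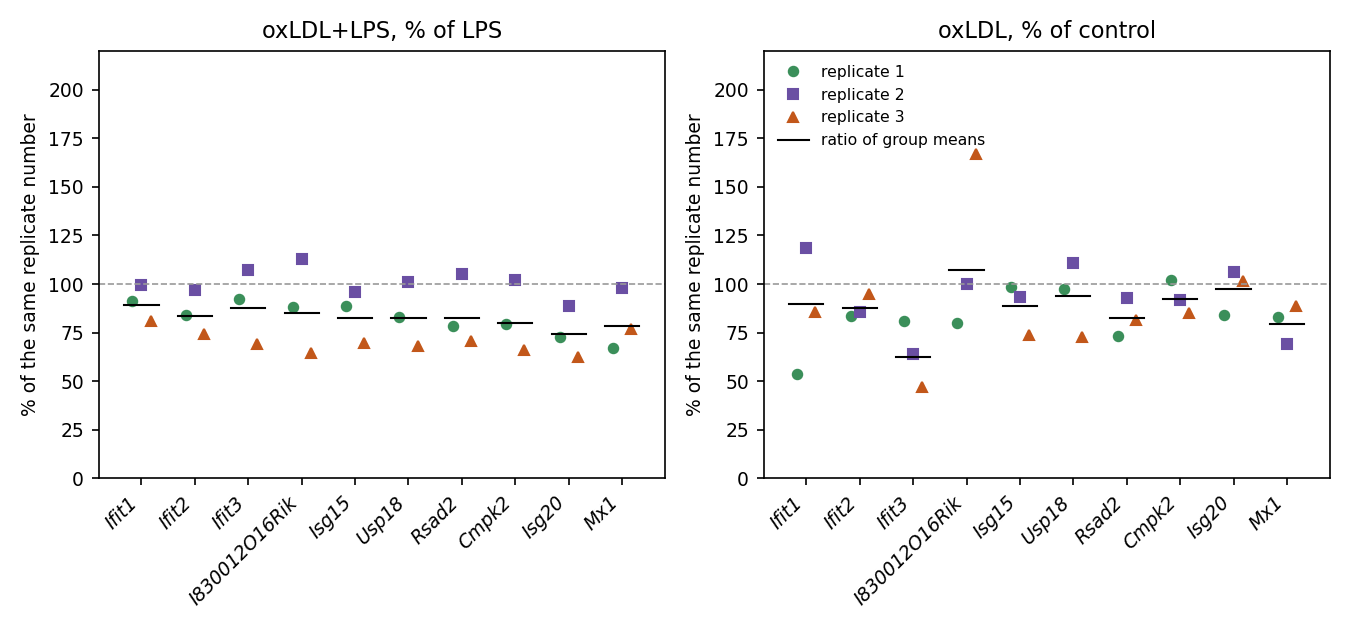
Normalized count with oxLDL as a percentage of the library with the same replicate number without oxLDL (y axis), with LPS on the left and without LPS on the right, with symbols for the replicate numbers and a black bar for the ratio of the group means. With LPS, replicate 3 lies between 62.3% and 80.9% in all 10 genes and replicate 2 between 88.7% and 112.9%, and without LPS the values scatter on both sides of the dashed line at 100%.

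Without LPS, the low resting levels of the antiviral genes with oxLDL overlapped the control range in 9 of the 10 members. Single oxLDL values lay above the control range as well as below it, as for Ifit1 (27 and 83, against 50 to 70 in control). I830012O16Rik, at 4, 6 and 5 with oxLDL, was too low to be tested. Limma called 0 of the other 9 members and 0% of 12751 genes, with 1 member (Rsad2) and 381 genes at an unadjusted p under 0.05, and the median log2 fold change was -0.18 for the members and -0.01 for all genes.

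Rsad2 was the member with a separate range, which 3.91% of the genes tested showed in the same direction. It was 502, 594 and 511 with oxLDL, below all 3 control libraries, a log2 fold change of -0.28 ± 0.089 (95% interval -0.49 to -0.07; limma, adjusted p = 1). In the blocked fit its adjusted p was 0.0606 and Rsad2 was called lower, as were 2.92% of the genes tested, 601 genes being called in all. Without replicate number 1 that p was 0.364, without number 2 it was 0.1001 and without number 3 it was 0.00211. Ifit3 had the largest fitted change, at 21, 30 and 16 with oxLDL (log2 fold change -0.66, 95% interval -1.41 to 0.10), and its control value of 26 lay inside that range. Ifit1 was 27, 83 and 54, which spanned its control values (-0.28, -1.19 to 0.63).

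The other members overlapped control as well. Ifit2 was 76, 113 and 92, Isg15 was 68, 71 and 53 and Isg20 was 43, 51 and 57. Cmpk2 was 144, 176 and 137, Mx1 was 29, 27 and 24 and Usp18 was 80, 114 and 73. Their log2 fold changes ran from -0.31 for Mx1 (95% interval -0.85 to 0.22) to -0.04 for Isg20 (-0.47 to 0.39).

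Other genes of the route from LPS to interferon gave a frame for these values. The comparisons share libraries, so their values stand side by side and are not independent. Transcripts of the interferons themselves were scarce: Ifnb1 was listed at 0 in all 6 libraries without LPS, at 8, 5 and 13 with LPS and at 4, 2 and 8 with oxLDL and LPS, and the 5 other ligand genes on the list were at 0 throughout. With LPS, 4 of 4 receptor and kinase genes were called higher (Ifnar1 by 1.73 and Ifnar2 by 1.65 on the log2 scale), as were 5 of 6 transcription factor genes, led by Irf7 (6.77) and Irf1 (5.11). The sixth, Irf3, whose protein is activated rather than newly made, had a log2 fold change of -0.16 (95% interval -0.43 to 0.12). Of 6 genes of the TLR4 route, Tbk1, Ikbke and Traf3 were called higher and Tlr4 lower. Of 21 other antiviral genes, 20 were called higher, of which Mx2 and Ifi44 passed the filter only through the LPS libraries.

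With oxLDL and LPS against LPS, none of these lists had a call without the block, as for all genes. Median log2 fold changes were -0.21 for the transcription factors, -0.21 for the receptor and kinases, -0.12 for the TLR4 route and -0.24 for the 21 other antiviral genes, beside -0.25 for the 10 members. With the block, 4 of the 21 were called lower (Oas2, Mx2, Zbp1 and Ifi44), Ifnar1 was called lower (-0.42), and so were Ticam1 (-0.26) and Ikbke (-0.45). The 12 cytokine and NF-κB genes that LPS induces had a median of -1.53, and 12 of 12 were called lower with the block, among them Tnf (-0.67), Il6 (-2.18) and Il1b (-2.16). The feedback inhibitors Socs1 (-1.03) and Socs3 (-1.18) were called lower with the block too. In the blocked interaction 7 of the 12 cytokine genes were called lower, Socs1 and Socs3 as well, and 0 of the 10 antiviral members. The lists were chosen with earlier results of these data known, and the difference between them was not itself tested.

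**Figure D4:**
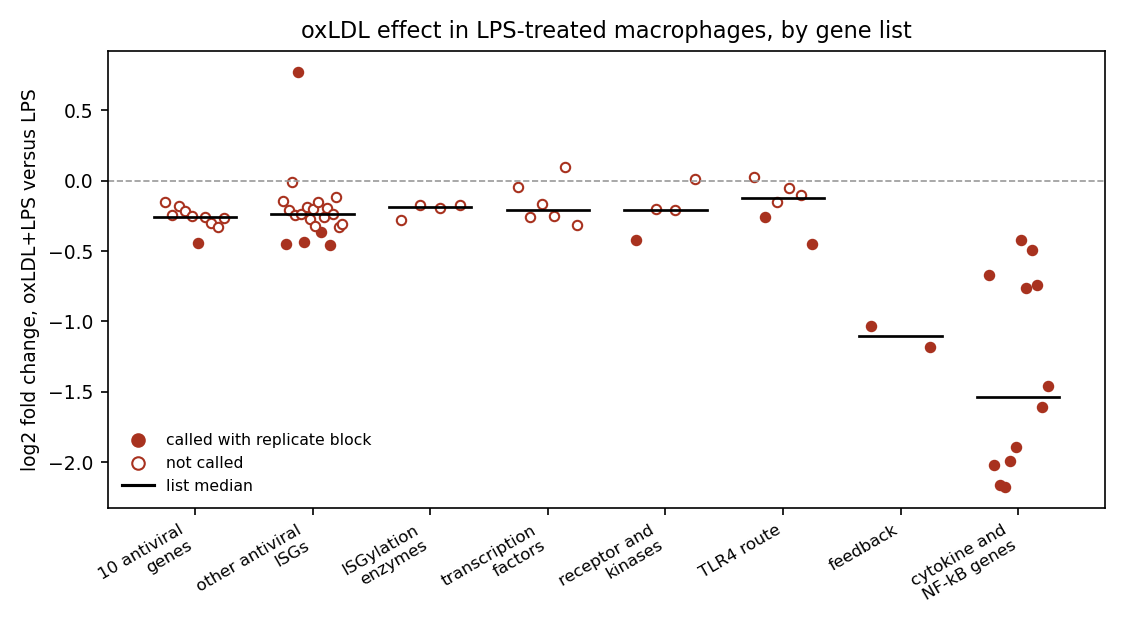
Log2 fold change of oxLDL+LPS versus LPS (y axis) for every tested gene of 8 lists, filled where the fit with the replicate block called the gene and open where it did not, with a black bar for the list median. The 10 antiviral genes lie between -0.44 and -0.15 with 1 filled point (Isg20), and the 12 cytokine and NF-κB genes are all filled with a median of -1.53.

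Across the 12 libraries the members moved together, and the difference between libraries with and without LPS enters every such correlation. Pearson's r of each member with the mean of the others on the log2 scale ran from 0.9974 (Isg20) to 0.9998 (Cmpk2), over 12 libraries in 4 groups. The 6 genes outside the list with the highest correlation with the members' mean standardized log2 level, among 13472 genes, were Irg1 (0.9997), Ddx58 (0.9994), Slfn8 (0.9993), Acsl1 (0.9992), Gbp5 (0.9992) and Ifih1 (0.9992). Irg1, which makes itaconate, had means of 90.3 in control and 147600 in LPS-treated PMφs. Ddx58 and Ifih1, the RNA sensors RIG-I and MDA5, rose from means of 508 and 580 to 14700 and 27980.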

How the data were processed

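Poly(A) RNA of 12 PMφ cultures was sequenced as 150-base pairs with a strand-keeping kit. Per the labels and the study's methods, the authors used Trimmomatic (0.32) for trimming and STAR (2.5.1b) for alignment to mm10 (GRCm38), and counted exonic reads per GENCODE vM4 gene with featureCounts (1.5.0). The deposited signal is 1 table of whole numbers, already scaled between libraries by the authors: size factors by the median of ratios were 1.0067 to 1.0119, so no count model was used. The depth per library is unknown, since the methods give only an approximate number of reads intended for every sample.

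Groups were compared with limma 3.58.1 in R 4.3.3 (lmFit, eBayes with a trend, two-sided) on log2(value + 1), over genes of at least 10 in at least 3 libraries of the fit. P-values were adjusted by Benjamini-Hochberg over all genes and called under 0.1, the study's threshold. Each fit held the 6 libraries compared, and the interaction all 12. Fold changes of low genes are understated by the pseudocount. Before use, the fits with and without the replicate block were run on a simulated LPS versus control comparison with 200 changed genes. Without the block, 2% of changes of 0.5 on the log2 scale were called and 83% of changes of 1, with 0 false calls. With the block it was 53% and 98%, with 9 false calls among 160. The spreads between simulated libraries were chosen values, not estimates from these data, so these shares do not carry over to the oxLDL comparisons. In oxLDL+LPS versus LPS the fit without the block called 0 of the 12 cytokine and NF-κB genes, whose median was -1.53. A count of 0 members without the block does not show that changes were absent. The oxLDL comparisons and the interaction were not simulated.

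Replicate numbers come from the labels. The methods describe cells pooled and divided among the 4 groups, which sex-linked genes did not bear out for number 1. Deviations from group means of same-numbered libraries were correlated over 12780 genes. The correlations were 0.649 to 0.694 between control and oxLDL, 0.622 to 0.664 between LPS and oxLDL+LPS, and 0.284 to 0.612 between LPS states. Same-numbered libraries were thus alike, and a blocked fit was run. Across LPS states, the block for number 1 joins libraries of different mixes of animals. The methods speak of independent experiments in general, but the labels tie no number to one, so p-values measure the spread between these libraries.

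The members and lists were chosen with earlier results of these data known. Genes named are the 10 members, genes of the lists, and the 6 genes most alike over the 12 libraries, and values of some list genes are not reported here. Exon lengths and positions are from GENCODE vM21 and promoters from RefSeq, both GRCm38. Alternatives were the block, all libraries in 1 fit, a pseudocount of 10, no filter, a filter met in all libraries, median-of-ratios scaling, equal totals, no trend, a threshold of 0.05 and each library left out. Leaving out replicate number 1 without a block was added after seeing the data.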

Additional observations from a re-analysis of the deposited data

How the results depend on the processing

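The calls higher with LPS of 9 members held, with and without oxLDL, under all 19 alternatives. I830012O16Rik was tested in 11 of the 19, since the filter dropped it from the other 8, and its log2 fold change ran from 8.52 to 10.09 without and from 8.27 to 9.72 with oxLDL. The replicate block moved the calls of oxLDL+LPS versus LPS from 0 to 1 member and to 1682 genes, those of oxLDL versus control to 1 member (Rsad2) and 601 genes, and those of the interaction to 147 genes. It changed no other call of a member. With libraries left out, blocked fits included, the oxLDL+LPS versus LPS calls ran from 0 to 5 members and 0 to 2945 genes, the oxLDL versus control calls from 0 to 1 member and 0 to 1285 genes, and the interaction calls from 0 to 763 genes. Without a block, leaving out oxLDL+LPS replicate 2 gave 91 genes in oxLDL+LPS versus LPS and 6 in the interaction. The cause was not tested.

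Some small log2 fold changes turned sign when libraries were left out. In oxLDL+LPS versus LPS, Ifit1 ran from -0.28 to 0.0055. In oxLDL versus control, Ifit1 ran from -0.65 to 0.15, Isg20 from -0.14 to 0.0632, Cmpk2 from -0.22 to 0.0072 and Usp18 from -0.30 to 0.0549. The interaction ran from -0.29 to 0.50 for Ifit1, -0.24 to 0.10 for Ifit2, -0.57 to 0.13 for I830012O16Rik, -0.20 to 0.11 for Isg15, -0.12 to 0.18 for Rsad2, -0.27 to 0.20 for Mx1 and -0.28 to 0.035 for Usp18. Under equal totals the interaction was 0.0372 for Ifit2, 0.0258 for Isg15 and 0.0825 for Mx1. The adjusted p of Isg20 in oxLDL+LPS versus LPS ran from 1.37e-07 to 0.999 over the alternatives, and that of Rsad2 in oxLDL versus control from 0.00211 to 1. The libraries limit how small a change could be called, since members differed between LPS replicates by 6.68% to 30.8% (coefficient of variation).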
